A study of Homo sapiens with 12 samples.

Results

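Young IMR-90 fibroblasts grown at 20% oxygen (population doubling 30) were set against the other groups of the same experiment: 3 arrays against 9, of 12 in all. IMR-90 is a line of human lung fibroblasts that divides a limited number of times in culture and then becomes senescent. The other groups, with 3 arrays each, were cells grown to senescence at 20% oxygen (doubling 48), young cells kept at 3% (doubling 30), and cells at 3% that had reached doubling 53 without becoming senescent, called old here. All 4 groups were flasks of this line in medium with bovine serum, taken at 80% confluency, and the labels name no treatment other than the oxygen level. The labels call the arrays of a group biological replicates without saying that they came from separate cultures, so the p-values measure the spread between these arrays. Cells at 3% and at 20% oxygen were kept in separate incubators, so oxygen and incubator cannot be told apart in a comparison between them. Senescent cells shared the oxygen level of the young cells at 20% and differed in passage, and old cells at 3% differed in both.

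Each value is a log2 signal set to 0 at the middle of the series for that probe set, so the values show differences between groups but not how strongly a gene is expressed. Every gene was tested for the difference between young cells at 20% oxygen and the equal-weight mean of the other 3 group means, and then against each of these groups alone. A difference was called at a Benjamini-Hochberg adjusted p under 0.05 from limma over 19775 genes, and it is said to hold where all 4 comparisons called it in the same direction. Differences are young cells at 20% oxygen minus the others, and values after ± are standard errors of the fit. Each group has 3 arrays, and their number limits the precision.

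Oxygen reaches transcription through the hypoxia-inducible factors (HIF), which oxygen-dependent prolyl hydroxylases mark for destruction when oxygen is ample. When oxygen is short the factors persist, bind short elements with the core ACGTG or GCGTG and switch on glucose uptake, glycolysis, mitophagy and collagen-modifying enzymes. Immediate-early genes are another programme: they are transcribed within minutes of a growth or stress signal, in part through the serum response factor, which binds the CArG box. Fibroblasts that become senescent in culture lose mitotic gene expression and acquire a secretory programme.

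Young cells at 20% oxygen differed from the mean of the other groups in 2892 genes (14.6%), of which 1670 (8.45%) were higher and 1222 (6.18%) lower. The difference held against each group for 879 genes (4.45%), 603 higher (3.05%) and 276 lower (1.4%). Of these, 601 higher (3.04%) and 276 lower genes (1.4%) had young 20% arrays that did not overlap the other 9. Calls in 1 direction against each of 3 groups of 3 arrays nearly force this, so it adds no support. Over all genes, 1989 (10.1%) showed no overlap, 1259 higher (6.37%) and 730 lower (3.69%). Each of the 3 differences reached 2-fold for 86 of the higher (0.435%) and 30 of the lower genes (0.152%). Without young 20% replicate 1 the count against the mean was 1877 and the count that held 561.

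Against senescent cells alone 2474 genes (12.5%) differed, 1551 higher (7.84%) and 923 lower (4.67%). Against young cells at 3% the counts were 2333 (11.8%), 1353 higher (6.84%) and 980 lower (4.96%). Against old cells at 3% they were 2622 (13.3%), 1345 higher (6.8%) and 1277 lower (6.46%). The 3 comparisons share the young 20% arrays.

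The same rule was applied with each other group in the place of the young cells at 20% oxygen. Senescent cells differed from the mean of the others in 2583 genes (13.1%), young cells at 3% in 1301 (6.58%) and old cells at 3% in 1596 (8.07%). The difference held against each group for 611 genes (3.09%) in senescent cells, 59 (0.298%) in young cells at 3% and 160 (0.809%) in old cells at 3%. In senescent cells 264 of them were higher (1.34%) and 347 lower (1.75%), in young cells at 3% 28 (0.142%) and 31 (0.157%), and in old cells at 3% 89 (0.45%) and 71 (0.359%). The count for senescent cells was 398 without senescent replicate 2, and that for old cells 94 without old replicate 2.

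**Figure D1:**
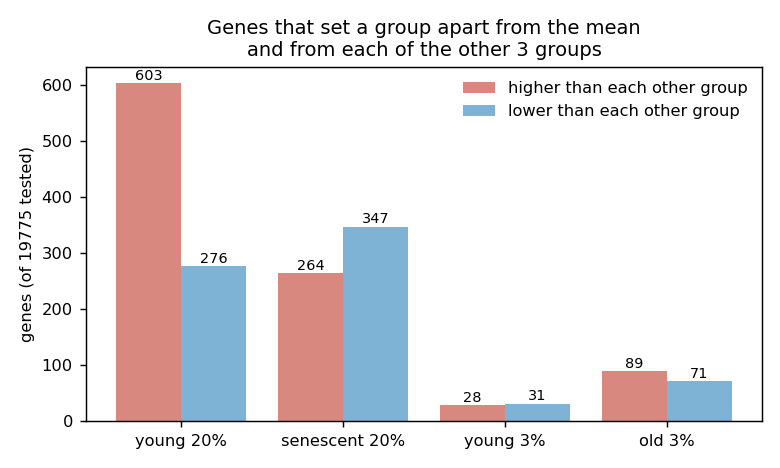
Number of genes (y axis) that differed from the mean of the other 3 groups and from each of them in the same direction, for the 4 groups on the x axis, higher and lower shown apart. The young 20% bars stand at 603 and 276 genes and the senescent bars at 264 and 347, with both groups at 3% oxygen below them.

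The fibroblast label was checked against marker genes. Of 12 fibroblast markers, 5 were higher (41.7%) and 2 lower (16.7%, 1 without young 20% replicate 1) in young cells at 20% oxygen than in the mean of the others. Over all genes the shares were 8.45% and 6.18%. LUM and DCN were higher than each group, while S100A4 differed by -0.415, -0.755 and -0.547 from senescent, young 3% and old 3% cells. Against that mean limma called 0 of 15 epithelial, 0 of 11 endothelial and 0 of 11 immune markers; at an unadjusted p under 0.05 there were 2 epithelial markers higher, 2 endothelial markers lower and 0 immune markers either way. Against single groups it called the keratin genes KRT19 higher than in young cells at 3% (0.91) and KRT18 higher than in old cells at 3% (0.76), and 2 epithelial markers were higher than the mean without young 3% replicate 1. Values centred in this way do not show whether a marker is expressed at all. The mean of the epithelial markers ran from -0.05 to 0.08 on the young 20% arrays and from -0.17 to 0.16 on the others, that of the endothelial markers from -0.11 to 0.06 and from -0.07 to 0.15, and that of the immune markers from -0.05 to 0.04 and from -0.06 to 0.10. As a sign of RNA quality, signal at the 3' end of ACTB minus that at its 5' end was -0.19 to 0.25 on the young 20% arrays, 0.03 to 0.35 on the senescent, -0.18 to 0.71 on the young 3% and -0.22 to 0.02 on the old 3% arrays. With it as a covariate 983 genes held.

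Targets of HIF were lower in young cells at 20% oxygen. Of 40 measured targets listed as outside glycolysis, 33 were lower (82.5%) and 1 higher (2.5%) than in the mean of the others. Lower than in each group were 24 (60%), and 1 was higher (2.5%). Over all genes 6.18% were lower and 8.45% higher than the mean, and 1.4% and 3.05% than each group. The median difference of the list was -0.73 against the mean, -0.89 against senescent cells, -0.59 against young cells at 3% and -0.71 against old cells at 3%, beside medians of -0.01, -0.04, 0.03 and -0.02 over all genes. Of 22 genes of glycolysis and pyruvate entry, 16 were lower (72.7%) and 2 higher (9.09%) than the mean, with a median of -0.46. Lower than in each group were 13 (59.1%), and 1 was higher (4.55%). The glucose transporter SLC2A3, lower, and the hexokinase HK2, higher, stand in both lists. PFKFB4, an enzyme that regulates glycolysis, was lower than each group and was counted with the HIF targets only. The glycolysis members lower than each group numbered 8 without young 20% replicate 2.

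Promoter sequences of BNIP3, DDIT4, ENO2 and PGK1, all lower in young cells at 20% oxygen than in each group, are shown because their letters hold the cores that HIF binds. They lie around the gene's start (RefSeq, GRCh38.p14), with ACGTG or GCGTG on either strand in capitals; on the opposite strand these read CACGT and CACGC, and overlapping matches count separately. BNIP3 lies at chr10:131981874-131982173 on the minus strand with 6 matches, ENO2 at chr12:6914330-6914629 on the plus strand with 1, DDIT4 at chr10:72273674-72273973 on the plus strand with 4, and PGK1 at chrX:78103998-78104297 on the plus strand with 4.
BNIP3: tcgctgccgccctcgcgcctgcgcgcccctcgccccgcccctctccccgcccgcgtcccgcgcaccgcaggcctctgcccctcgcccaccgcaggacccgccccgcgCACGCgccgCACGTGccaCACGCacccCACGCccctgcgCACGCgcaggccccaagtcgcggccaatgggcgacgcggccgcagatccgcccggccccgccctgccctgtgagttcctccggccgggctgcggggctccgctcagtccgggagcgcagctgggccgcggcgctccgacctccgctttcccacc
ENO2: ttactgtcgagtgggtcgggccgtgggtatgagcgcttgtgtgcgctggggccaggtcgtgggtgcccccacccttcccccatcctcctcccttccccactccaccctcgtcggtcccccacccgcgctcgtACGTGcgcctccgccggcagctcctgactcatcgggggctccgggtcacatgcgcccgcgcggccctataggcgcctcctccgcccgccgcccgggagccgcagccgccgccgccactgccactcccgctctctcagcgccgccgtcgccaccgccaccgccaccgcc
DDIT4: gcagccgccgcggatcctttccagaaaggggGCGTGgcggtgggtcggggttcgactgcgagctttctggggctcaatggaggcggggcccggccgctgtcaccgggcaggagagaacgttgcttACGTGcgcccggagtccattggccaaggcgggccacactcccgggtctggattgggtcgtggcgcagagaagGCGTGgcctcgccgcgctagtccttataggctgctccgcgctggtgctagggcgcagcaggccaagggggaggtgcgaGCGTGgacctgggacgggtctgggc
PGK1: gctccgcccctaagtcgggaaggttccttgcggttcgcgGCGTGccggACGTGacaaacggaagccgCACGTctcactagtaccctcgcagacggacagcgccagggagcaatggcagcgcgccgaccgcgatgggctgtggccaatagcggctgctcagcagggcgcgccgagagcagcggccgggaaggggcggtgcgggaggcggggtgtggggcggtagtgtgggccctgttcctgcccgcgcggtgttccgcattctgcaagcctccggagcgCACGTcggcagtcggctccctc
A core of either kind stood in 29 of 34 promoters of HIF targets outside glycolysis that the table holds (85.3%), and in 25 of 32 of the members of both lists that were lower than each group (78.1%). It also stood in 56.4% of the promoters of all genes tested, in 60.4% of those of all genes lower and 64.0% of those of all genes higher than each group, so a match by itself is common. ACGTG alone stood in 58.8% of the promoters of HIF targets and in 24.1% of those of all genes tested. The MXI1 promoter held 0 matches in this window. A match is a string of letters and was not tested as a binding site.

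NDRG1, a stress-responsive gene that rises in many hypoxic cells, led the lower genes when ranked by the smallest of the 3 differences. It stood at -2.40, -2.32 and -2.52 in young cells at 20% oxygen, against 0.04, -0.14 and -0.04 in senescent cells, 0.12, -0.14 and 0.08 in young cells at 3% and 0.34, 0.15 and 0.33 in old cells at 3%. The 3 young 20% arrays lay far below the other 9, which differed little among themselves. The ranking took only genes without overlap, so the lack of overlap was set by the choice. The difference was -2.49 ± 0.08 against the mean (5.63-fold lower, adjusted p = 3.09e-09), and the gene was at least 5.15-fold lower than in every group. DDIT4, an inhibitor of mTORC1 signalling, stood at -2.42, -2.01 and -2.73 in young cells at 20% oxygen, against -0.50, -0.32 and -0.20 in senescent cells, 0.20, 0.26 and 0.36 in young cells at 3% and 0.54, 0.42 and 0.47 in old cells at 3%. Senescent cells lay nearest to the young cells at 20% for this gene (-2.05, adjusted p = 2.32e-06).

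The mitophagy receptor BNIP3, the MYC antagonist MXI1 and the enolase ENO2 had another order, with the senescent cells farthest away. BNIP3 stood at -1.79, -2.06 and -2.03 in young cells at 20% oxygen, against 0.36, 0.41 and 0.45 in senescent cells, 0.14, 0.19 and 0.03 in young cells at 3% and -0.03, -0.04 and -0.19 in old cells at 3%. The smallest of its differences was the one from old cells at 3% (-1.87, 3.66-fold lower). MXI1 differed by -2.49, -1.99 and -1.90 from senescent, young 3% and old 3% cells, and ENO2 by -2.63, -2.04 and -1.93. BNIP3L, a related mitophagy receptor, was lower by smaller amounts (-1.42, -0.86 and -0.83). ERO1A, the oxidase that feeds disulphide formation in the endoplasmic reticulum, differed by -1.94, -1.39 and -1.44. HILPDA, a lipid droplet protein, was lower at least 2.35-fold than in each group, and the lipoprotein receptor VLDLR at least 2.53-fold.

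Glucose handling moved with them. The transporter SLC2A1 stood at -1.22, -1.29 and -1.16 in young cells at 20% oxygen, against 0.17, 0.08 and 0.33 in senescent cells, 0.23, 0.00 and 0.07 in young cells at 3% and 0.00, -0.10 and 0.06 in old cells at 3%. Phosphoglycerate kinase PGK1 differed by -1.42, -1.15 and -1.09 from senescent, young 3% and old 3% cells, and its 6 probe sets all lay below 0 against the mean. PDK1, which inhibits the entry of pyruvate into mitochondria, differed by -1.21, -0.95 and -1.37, with probe sets at -1.24, -1.76 and -0.53 against the mean. Lactate dehydrogenase A (LDHA) and GAPDH, often used as a reference gene, were also lower than in each group, with differences of -0.43 ± 0.07 and -0.39 ± 0.06 from the mean. Their call against each group was lost without young 20% replicate 2, and that of GAPDH also without young 20% replicate 1 or old replicate 2. The members that were higher were HK2 (0.47 ± 0.08), whose probe sets ran from 0.06 to 0.81, and LDHB, the other lactate dehydrogenase subunit (0.25), which did not hold against each group. HK2 no longer held without young 20% replicate 1 or 2 or senescent replicate 1 or 3, and the list had 1 higher member, not 2, without any single young 20% array.

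**Figure D2:**
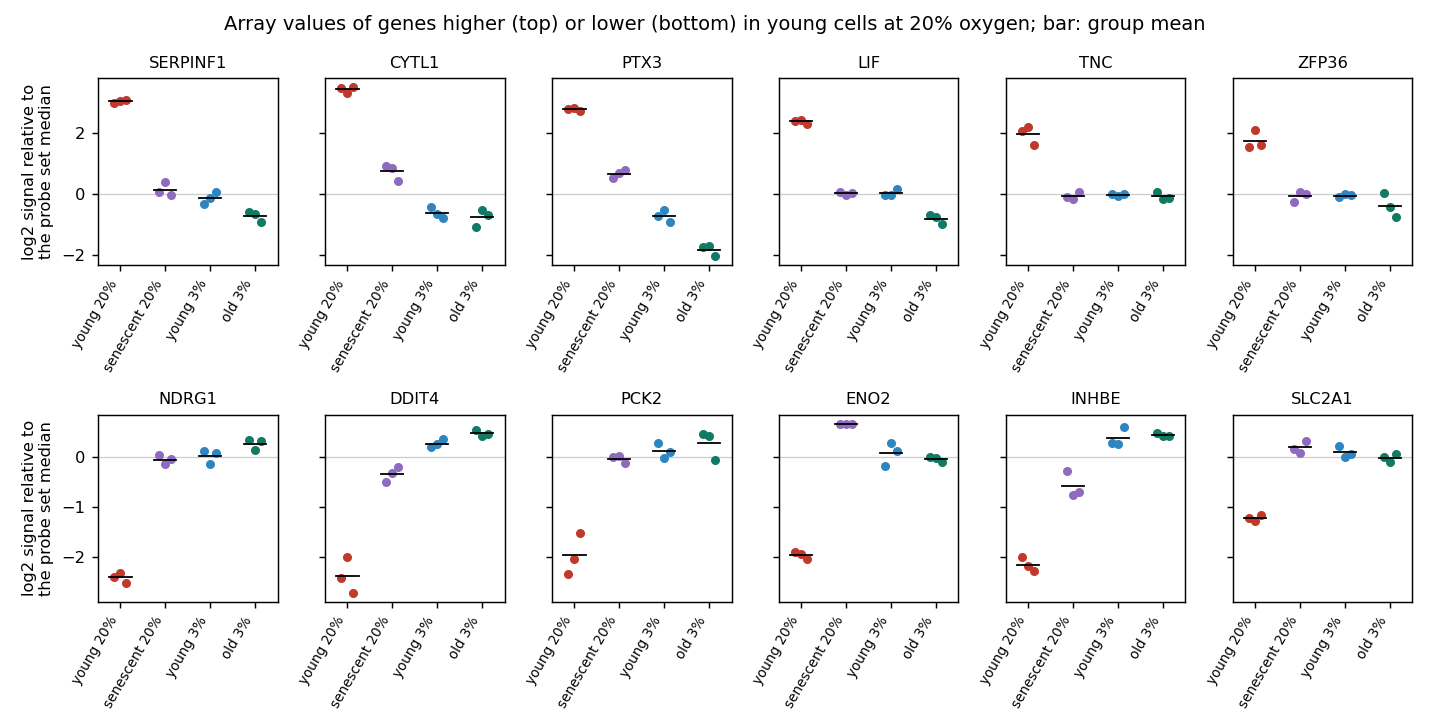
Log2 signal relative to the probe set median (y axis) of 6 genes higher (top) and 6 genes lower (bottom) in young cells at 20% oxygen, a point per array and a bar at the group mean, with the 4 groups on the x axis. The young 20% points stand apart from the other 9 arrays in every panel, as NDRG1 does at -2.40, -2.32 and -2.52 and LIF at 2.40, 2.43 and 2.31. All panels show genes that held against each group, which nearly forces this.

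VEGFA, the angiogenic ligand usually counted among HIF targets, had a small difference. Its difference from the mean was -0.34 ± 0.09 (adjusted p = 0.0283) and was not called against senescent cells (-0.20, adjusted p = 0.369) or young cells at 3% (-0.37, adjusted p = 0.0599). For the gene VEGFA the adjusted p against the mean ran from 0.000161 with array quality weights to 0.15 without young 20% replicate 1; it was also above the threshold without young 20% replicate 2 (0.143), without old replicate 2 (0.0517) and with the replicate number as a block (0.056). EPO, ANGPTL4, CA12, FGF11, WSB1 and JMJD6 were not called against the mean. Of 10 subunits of HIF and oxygen sensors, EGLN1, a prolyl hydroxylase that is itself a HIF target, was lower than each group (-0.79 ± 0.11, adjusted p = 0.00039), with probe sets from -1.67 to 0.15. EGLN3, another prolyl hydroxylase, was lower than the mean, with its largest difference from old cells at 3% (-1.35). HIF1A and EPAS1, which encode oxygen-regulated subunits, differed from the mean by 0.13 ± 0.07 and 0.14 ± 0.08 (adjusted p = 0.35 and 0.362).

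Several enzymes that modify collagen were lower, while most collagen chains were not called. Of 16 hydroxylases and crosslinkers 8 were lower (50%) and 1 higher (6.25%) than the mean, beside 6.18% and 8.45% of all genes. Lower than each group were 5 (31.2%), and 1 was higher (6.25%), beside 1.4% and 3.05% of all genes. Without young 20% replicate 1, 5 were lower than the mean and 3 than each group. The lysyl oxidase LOX stood at -1.14, -1.25 and -1.03 in young cells at 20% oxygen, against 0.33, 0.46 and 0.32 in senescent cells, 0.24, -0.12 and 0.17 in young cells at 3% and -0.04, -0.06 and -0.25 in old cells at 3%. The lysyl hydroxylases PLOD1 and PLOD2 and the prolyl hydroxylase P4HA2 differed by -0.96, -0.95 and -0.72 from the mean; these 3 and LOX also stand in the list of HIF targets. PLOD1 no longer held without young 20% replicate 1 or 3 or old replicate 1 or 2, and the probe sets of P4HA2 ran from -1.38 to -0.05. PCOLCE, which enhances the processing of procollagen, was the member that was higher (0.69), and it no longer held without young 20% replicate 2 or young 3% replicate 2 or 3.

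Of 24 collagens, 3 were higher and 3 lower than the mean (1 lower without young 20% replicate 1 or 3), shares of 12.5% and 12.5% beside 8.45% and 6.18% of all genes, and COL14A1, a collagen on the surface of fibrils, was higher than each group. It stood at 1.71, 1.81 and 1.84 in young cells at 20% oxygen, against -0.21, -0.45 and -0.05 in senescent cells, 0.05, -0.07 and -0.04 in young cells at 3% and -0.06, -0.15 and 0.28 in old cells at 3%. Its 4 probe sets disagreed, with 3.24, -0.16, 0.21 and 4.18 against the mean. COL1A1 and COL1A2, the chains of collagen I, were not called (-0.12 and -0.17, adjusted p = 0.435 and 0.195).

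Many genes of the integrated stress response and of serine synthesis were lower. Of 30 measured members of the unfolded protein and integrated stress response, 18 were lower (60%) and 1 higher (3.33%) than the mean. Over all genes these shares were 6.18% and 8.45%, and the median difference of the list was -0.37. Lower than each group were 10 (33.3%), and 1 was higher (3.33%), beside 1.4% and 3.05% of all genes. STC2 and VLDLR, among the 10, also stand in the list of HIF targets. The higher member, the chaperone DNAJB9, no longer held without young 20% replicate 1 or 3 or senescent replicate 2 or 3. PSAT1, PHGDH and PSPH, the enzymes that make serine from a glycolytic intermediate, differed by -1.47, -1.07 and -0.50 from the mean. SHMT2, the mitochondrial enzyme that takes a carbon from serine, differed by -0.78, and ASNS, asparagine synthetase, by -0.80, with probe sets from -1.48 to -0.11. Of these 5, PSPH held in 3 and SHMT2 in 8 of the 12 fits that leave out 1 array, both losing the call without young 20% replicate 1 or 3 or senescent replicate 1 or 3, and PSPH also without young 20% replicate 2, young 3% replicate 3 or any old array. The amino acid transporter SLC7A5 stood at -0.89, -0.84 and -0.87 in young cells at 20% oxygen, against -0.07, 0.02 and -0.01 in senescent cells, 0.02, 0.25 and 0.01 in young cells at 3% and 0.11, -0.04 and 0.03 in old cells at 3%. The transcription factor ATF4, which drives such enzymes, was lower than the mean (-0.52 ± 0.08, adjusted p = 0.00076) and not called against senescent cells (-0.30, adjusted p = 0.0783). HSPA5, DDIT3 and XBP1, of the same list, were not called. The chaperone HSP90B1, also of this list, was lower than each group, with probe sets from -0.63 to -0.56 against the mean.

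Mitochondrial phosphoenolpyruvate carboxykinase PCK2 and the activin subunit INHBE, both raised by ATF4 in other settings, were among the 15 lower genes that the ranking put first. PCK2 stood at -2.35, -2.04 and -1.52 in young cells at 20% oxygen, against 0.01, 0.01 and -0.12 in senescent cells, 0.28, -0.01 and 0.11 in young cells at 3% and 0.47, 0.42 and -0.05 in old cells at 3%. Its 3 young 20% arrays spread more than those of NDRG1. That they lay below all others was a condition of the ranking. INHBE stood at -2.01, -2.18 and -2.28 in young cells at 20% oxygen, against -0.27, -0.76 and -0.69 in senescent cells, 0.28, 0.27 and 0.60 in young cells at 3% and 0.49, 0.42 and 0.42 in old cells at 3%. Senescent cells lay between the young cells at 20% and both groups at 3% for INHBE. EIF4EBP1, a repressor of translation initiation and a target of ATF4, differed from the mean by -1.29 ± 0.20 (adjusted p = 0.000652), with young 20% arrays at -1.61, -0.98 and -0.93. The DNA damage sensor DDB2, a p53 target, was lower than each group (-1.18, -1.36 and -1.54). CDKN1A, the p21 inhibitor of the cell cycle, differed from senescent cells (-1.76) and was not called against young or old cells at 3% (0.27 and -0.09).

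**Figure D3:**
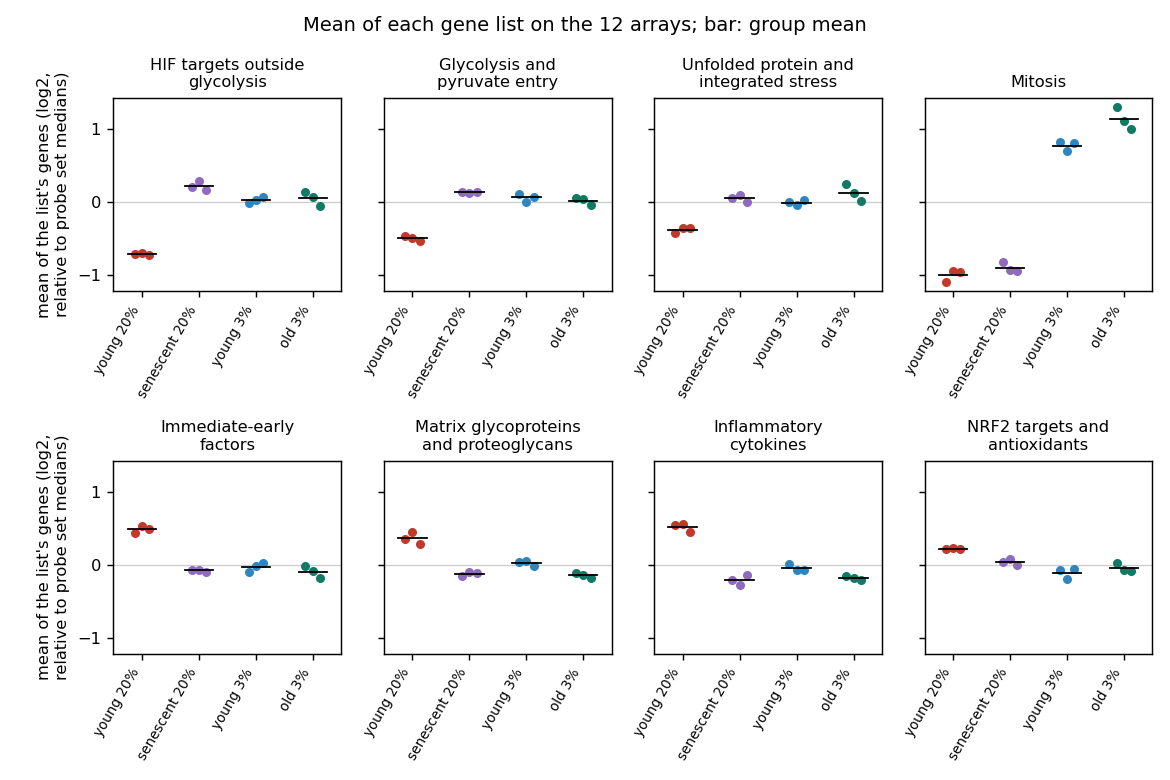
Mean log2 value of the measured genes of 8 lists (y axis, relative to the probe set medians) on each of the 12 arrays, with a bar at the group mean and the 4 groups on the x axis. HIF targets lie at -0.72 to -0.69 on the young 20% arrays and at -0.05 to 0.29 on the other 9; mitosis genes lie low in young and senescent cells at 20% oxygen and high in both groups at 3%.

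Mitosis genes split the other groups. Of 41 measured genes 37 were lower (90.2%) in young cells at 20% oxygen than in the mean of the others, beside 6.18% of all genes. The median was -1.44 against that mean, but -0.07 against senescent cells, -1.96 against young cells at 3% and -2.27 against old cells at 3%. The mean of the list was -1.09 to -0.94 on the young 20% arrays, -0.94 to -0.81 on the senescent, 0.70 to 0.82 on the young 3% and 1.00 to 1.30 on the old 3% arrays. In RNA of a whole culture, fewer dividing cells and less RNA per cell cannot be told apart. The kinetochore gene NDC80 stood at -1.41, -1.46 and -1.26 in young cells at 20% oxygen, against -1.20, -1.59 and -1.57 in senescent cells, 1.20, 1.44 and 1.29 in young cells at 3% and 2.34, 2.23 and 1.68 in old cells at 3%. Its difference from senescent cells was 0.08 (adjusted p = 0.884), and the proliferation marker MKI67 gave -0.16 (adjusted p = 0.635).

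Against senescent cells 6 mitosis genes were lower in young cells at 20% oxygen and 1, the kinase gene AURKA, was higher (0.76, adjusted p = 0.000357). Over all genes 4.67% were lower and 7.84% higher than in senescent cells. The 6 were KIF20A, NUF2, TPX2, ASPM, DLGAP5 and PTTG1, which serve the spindle, the kinetochore and the separation of sister chromatids. These 6 were also lower than each group (14.6%), beside 1.4% of all genes. The kinesin KIF20A stood at -2.09, -1.48 and -1.88 in young cells at 20% oxygen, against -1.07, -1.14 and -0.95 in senescent cells, 0.95, 1.32 and 0.97 in young cells at 3% and 1.54, 1.36 and 1.47 in old cells at 3%. Its difference from senescent cells was -0.76 (adjusted p = 0.00433), and NUF2, TPX2, ASPM, DLGAP5 and PTTG1 differed from them by -0.49, -0.56, -0.58, -0.45 and -0.70. The count of 6 was 2 without young 20% replicate 1 or 3 or senescent replicate 1 or 2, 3 without young 20% replicate 2, and 19 with array quality weights. Of 41 DNA replication genes 22 were lower (53.7%) and 1 higher (2.44%) than the mean, beside 6.18% and 8.45% of all genes. Without young 20% replicate 1, 13 were lower and 0 higher than the mean. Limma had 0 of these genes hold against each group, and 0 at an unadjusted p under 0.05 in each comparison. Their median was 0.17 against senescent cells, -0.84 against young cells at 3% and -0.61 against old cells at 3%. RRM2, a subunit of ribonucleotide reductase, was higher than in senescent cells (0.56, adjusted p = 0.00846) and lower than in young and old cells at 3% (-1.87 and -1.80). Its probe sets disagreed against senescent cells, with 1.06 and 0.06.

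**Figure D4:**
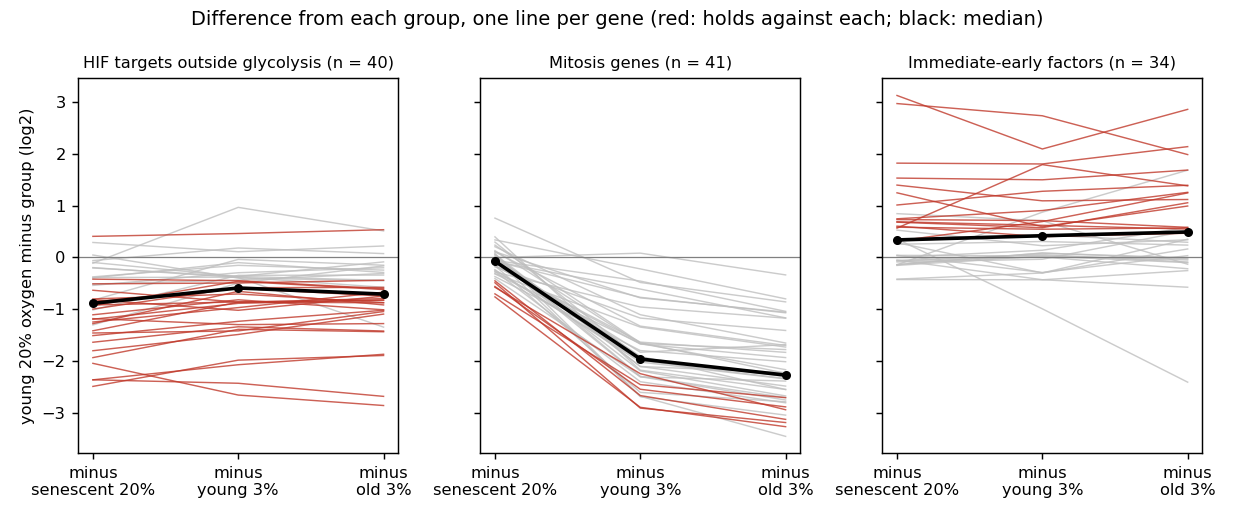
Log2 difference of young cells at 20% oxygen from each other group (y axis; the 3 groups on the x axis), with a line for each gene of 3 lists, red where the difference holds against each group, and the list median in black. The HIF median stays between -0.89 and -0.59, the mitosis median is -0.07 against senescent cells and -1.96 and -2.27 against the groups at 3%, and the immediate-early median lies between 0.34 and 0.49.

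Many immediate-early factors were higher in young cells at 20% oxygen. Of 34 measured members 20 were higher (58.8%) and 3 lower (8.82%) than the mean, beside 8.45% and 6.18% of all genes. Higher than each group were 15 (44.1%), and 0 were lower, beside 3.05% and 1.4% of all genes. At an unadjusted p under 0.05 in all 4 limma comparisons 1 was lower. The median difference was 0.42 against the mean, 0.34 against senescent cells, 0.42 against young cells at 3% and 0.49 against old cells at 3%. The zinc finger factor EGR3 stood at 2.35, 2.48 and 2.38 in young cells at 20% oxygen, against -0.36, -1.31 and -0.51 in senescent cells, 0.48, 0.12 and 0.33 in young cells at 3% and -0.33, -0.93 and -0.12 in old cells at 3%. Its smallest difference was the one from young cells at 3% (2.10, 4.28-fold), while that of FOS, a subunit of AP-1, was the one from old cells at 3% (1.99, 3.97-fold). ZFP36, which binds AU-rich messages and speeds their decay, stood at 1.53, 2.10 and 1.62 in young cells at 20% oxygen, against -0.28, 0.05 and 0.01 in senescent cells, -0.10, -0.01 and -0.05 in young cells at 3% and 0.02, -0.43 and -0.76 in old cells at 3%. All 3 of its young 20% arrays lay above the other 9.

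Other members differed by less than EGR3 and FOS. FOSB differed by 1.54, 1.50 and 1.69 from senescent, young 3% and old 3% cells, JUNB by 0.75, 0.91 and 1.26 and EGR1 by 0.68, 0.58 and 1.06. The ERK phosphatase DUSP6 and the signalling inhibitors SPRY2 and SPRY4, which are induced by the pathway they restrain, were higher than each group too, with 1.25, 1.23 and 1.21 against the mean. SRF, the serum response factor itself, was higher by 0.57 ± 0.09 against the mean. The orphan receptors NR4A2 and NR4A3 and the AP-1 subunit FOSL2 were the lower members; NR4A2 differed from old cells at 3% by -2.41. NR4A1 and ATF3 were not called. The promoter of EGR1 is shown with its matches to the CArG box in capitals; it lies at chr5:138465229-138465528 on the plus strand (RefSeq, GRCh38.p14).
EGR1: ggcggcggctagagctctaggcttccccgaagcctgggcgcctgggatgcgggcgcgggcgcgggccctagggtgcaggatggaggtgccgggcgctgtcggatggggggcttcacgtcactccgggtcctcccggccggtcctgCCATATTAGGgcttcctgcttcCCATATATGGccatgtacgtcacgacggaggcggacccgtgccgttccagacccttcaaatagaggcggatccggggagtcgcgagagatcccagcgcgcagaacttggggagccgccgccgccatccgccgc
It holds 2 such boxes. A CArG box stood in 2 of 13 promoters of the immediate-early genes that were higher than each group (15.4%), in 3.26% of those of all higher genes and in 1.22% of those of all genes tested. The FOS and FOSB promoters held 0 in this window.

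Several secreted and surface proteins of inflammation were higher. Of 30 measured members 13 were higher (43.3%) and 3 lower (10%) than the mean, beside 8.45% and 6.18% of all genes. The median difference was 0.35. Higher than each group were 9 (30%), and 0 were lower, beside 3.05% and 1.4% of all genes. At an unadjusted p under 0.05 in each limma comparison 0 were lower as well. The 9 ranged from 6 to 9 with 1 array left out, and were 6 with quantile normalization again. The cytokine LIF, of the IL6 family, stood at 2.40, 2.43 and 2.31 in young cells at 20% oxygen, against 0.08, -0.04 and 0.02 in senescent cells, -0.03, -0.02 and 0.15 in young cells at 3% and -0.70, -0.76 and -0.99 in old cells at 3%. The pentraxin PTX3, a soluble pattern recognition protein, stood at 2.79, 2.81 and 2.74 in young cells at 20% oxygen, against 0.54, 0.70 and 0.78 in senescent cells, -0.73, -0.54 and -0.93 in young cells at 3% and -1.73, -1.71 and -2.05 in old cells at 3%. No groups of PTX3 overlapped, and after the young cells at 20% they ran from senescent cells down to old cells at 3%. The adhesion molecule VCAM1 differed by 1.28, 3.40 and 5.35 from senescent, young 3% and old 3% cells, the monocyte chemokine CCL2 by 1.40, 2.76 and 4.51 and the cytokine TSLP by 1.33, 3.04 and 2.89, so that senescent cells were nearest for these 3 as well.

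Other cytokines differed from some groups. IL33, a nuclear alarmin, was higher than each group, but its young 20% arrays stood at 1.82, 2.06 and 0.47, with replicate 3 far below the other two and still above the other 9 arrays. IL33 no longer held without young 20% replicate 1 or 2 or young 3% replicate 3. TNFAIP3 and ICAM1, of the same list and also higher than each group, held in 3 and 7 of the 12 fits that leave out 1 array. IL6 differed from senescent cells (1.31, adjusted p = 1.64e-05) and was not called against young or old cells at 3% (0.25 and -0.01, adjusted p = 0.253 and 0.988). The neutrophil chemokine CXCL8 was higher than in senescent cells and young cells at 3% (2.12 and 1.22) and was not called against old cells at 3% (0.21, adjusted p = 0.331). PTGS2, the inducible cyclooxygenase, went in opposite directions: it was higher than in senescent cells by 1.18 and differed from young and old cells at 3% by -1.98 and -2.83. Of 28 interferon-stimulated genes 5 were higher (17.9%) and 2 lower (7.14%) than the mean, beside 8.45% and 6.18% of all genes. The lower count was 1 without any single young 20% array. The membrane proteins IFITM1, IFITM2 and IFITM3 were higher than each group (10.7%, beside 3.05% of all genes), IFITM3 not without young 20% replicate 1 or senescent replicate 1. IFITM1 stood at 1.25, 1.09 and 0.84 in young cells at 20% oxygen, against 0.07, 0.12 and -0.07 in senescent cells, -0.97, -1.32 and -0.98 in young cells at 3% and 0.19, -0.19 and -0.23 in old cells at 3%. These 3 genes are alike in sequence, so a signal may be shared among them.

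Matrix proteins outside the collagens were mostly higher. Of 36 matrix glycoproteins, proteoglycans and elastic fibre genes 19 were higher (52.8%) and 6 lower (16.7%) than the mean, beside 8.45% and 6.18% of all genes. Higher than each group were 11 (30.6%), and 2 were lower (5.56%), beside 3.05% and 1.4% of all genes. The 11 were 7 without young 20% replicate 2 or senescent replicate 1, and the 6 were 3 without young 20% replicate 3. Tenascin C, a matrix protein of wounds and development encoded by TNC, stood at 2.07, 2.20 and 1.60 in young cells at 20% oxygen, against -0.10, -0.16 and 0.05 in senescent cells, -0.01, -0.06 and 0.00 in young cells at 3% and 0.07, -0.15 and -0.12 in old cells at 3%. Its probe sets gave 1.44, 1.63 and 2.97 against the mean. MFAP4, which binds elastic microfibrils, stood at 2.12, 2.59 and 2.04 in young cells at 20% oxygen, against 0.15, 0.45 and 0.07 in senescent cells, -0.53, -0.15 and -0.07 in young cells at 3% and -0.36, -0.23 and -0.88 in old cells at 3%. The small proteoglycans LUM and DCN, which bind collagen fibrils and lie side by side in the genome, differed by 1.42 ± 0.08 and 1.24 ± 0.08 from the mean. POSTN, which encodes periostin, differed by 0.79, 1.12 and 1.91 from senescent, young 3% and old 3% cells. ECM1 and the basement membrane protein NID2 were lower than each group, ECM1 not without young 20% replicate 3. CTHRC1 and the elastin gene ELN were higher than the mean without holding; CTHRC1 differed by 3.29 from senescent cells, was not called against young cells at 3% (0.14) and was lower than in old cells at 3% (-0.39, adjusted p = 0.00862).

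Genes of the contractile apparatus were higher by modest amounts. Of 24 measured members 15 were higher (62.5%) and 1 lower (4.17%) than the mean, and the median difference was 0.50. Higher than each group were 9 (37.5%), and 1 was lower (4.17%). Over all genes the shares were 8.45% and 6.18% against the mean, and 3.05% and 1.4% against each group. The leiomodin LMOD1, an actin nucleator of smooth muscle, stood at 0.97, 1.01 and 0.80 in young cells at 20% oxygen, against 0.20, 0.39 and -0.17 in senescent cells, -0.34, -0.38 and -0.17 in young cells at 3% and 0.07, -0.17 and -0.52 in old cells at 3%. Cardiac actin ACTC1 differed by 1.46, 0.75 and 0.55 from senescent, young 3% and old 3% cells, and smooth muscle actin ACTA2 by 0.69, 0.39 and 0.53. ACTC1 no longer held without young 20% replicate 1 or 2 or any old array, and ACTA2 held in 3 of the 12 fits that leave out 1 array, those without young 20% replicate 1 or old replicate 1 or 2. The coactivator MYOCD, which with the serum response factor drives smooth muscle genes, went the other way: it stood at -0.79, -0.71 and -1.14 in young cells at 20% oxygen, against -0.33, -0.39 and -0.44 in senescent cells, 0.87, 0.56 and 0.40 in young cells at 3% and 0.77, 0.54 and 0.55 in old cells at 3%. MYOCD no longer held without young 20% replicate 1 or 3 or any senescent array. The 9 higher members were 4 without young 20% replicate 1 or 2. MYH11 and DES, which mark smooth muscle, were not called. Of 10 pericyte and smooth muscle markers 3 were higher (30%) and 2 lower (20%) than the mean, beside 8.45% and 6.18% of all genes. The 2 were 1 without young 20% replicate 1 or 2. The mean of these markers was 0.00 to 0.11 on the young 20% arrays and -0.09 to 0.07 on the others. Their part in the contractile difference was not tested.

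**Figure D5:**
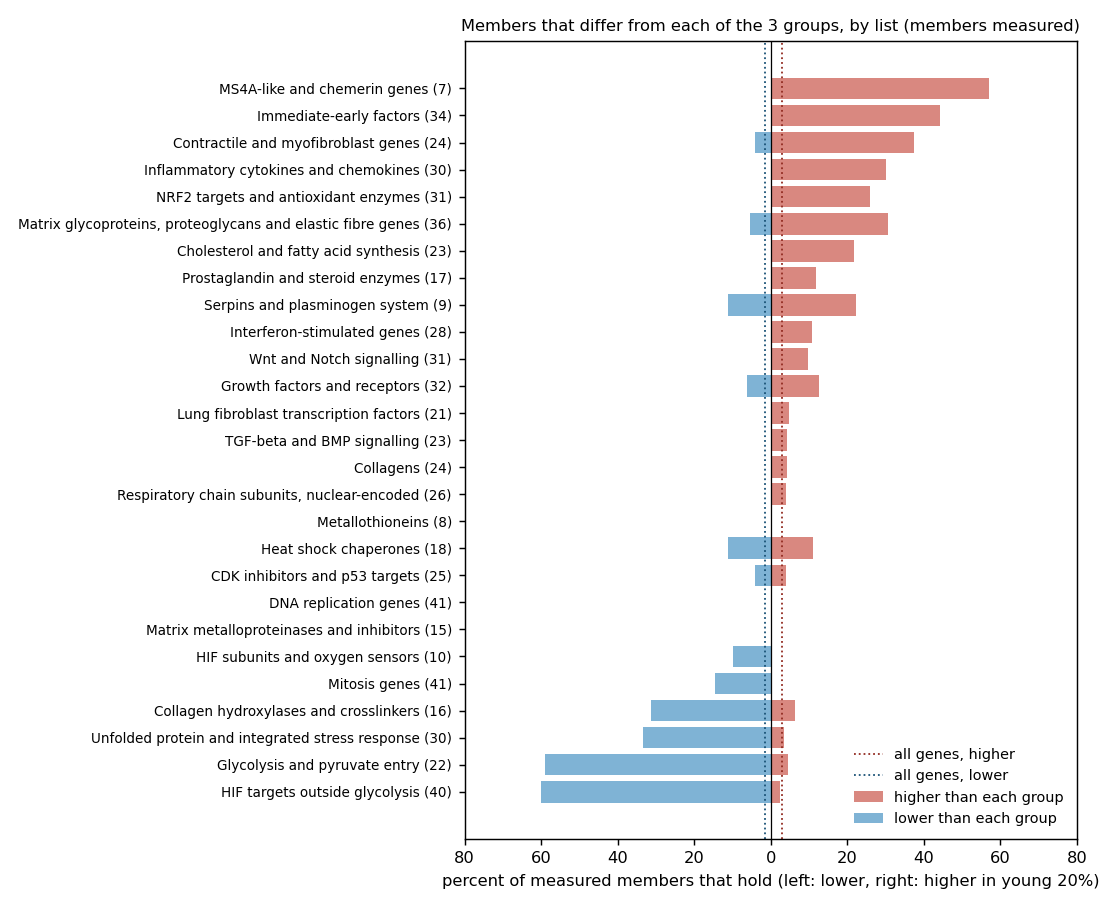
Percent of the measured members of each list that differed from each of the 3 other groups in the same direction (x axis; lower to the left, higher to the right), with the lists down the y axis and dotted lines at the share over all genes, 1.4% lower and 3.05% higher. HIF targets and glycolysis reach 60% and 59.1% to the left, and immediate-early factors 44.1% to the right.

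Many of the large differences were in genes outside these programmes. Of 7 MS4A-like and chemerin genes 4 were higher than the mean and 4 than each group (57.1% each). Over all genes the shares were 8.45% and 3.05%. TMEM176A, a membrane protein of the MS4A-like family, was higher at least 9.28-fold than in each group, and RARRES2, the precursor of the chemoattractant chemerin, at least 9.09-fold. TMEM176B, which starts beside TMEM176A on the opposite strand, stood at 1.36, 1.38 and 1.30 in young cells at 20% oxygen, against 0.08, 0.13 and 0.13 in senescent cells, -0.58, 0.01 and -0.14 in young cells at 3% and -0.20, 0.11 and -0.08 in old cells at 3%. Its probe sets disagreed, with 2.88 and -0.07 against the mean. RARRES1, a membrane protein induced by retinoids, was higher by 1.30, 0.95 and 1.22 against senescent, young 3% and old 3% cells. The chemerin receptor gene CMKLR1 and MS4A7 were not called.

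SERPINF1, the secreted factor PEDF that restrains new vessels, stood at 2.99, 3.05 and 3.09 in young cells at 20% oxygen, against 0.05, 0.38 and -0.05 in senescent cells, -0.33, -0.12 and 0.07 in young cells at 3% and -0.60, -0.65 and -0.94 in old cells at 3%. It differed by 3.29 ± 0.11 from the mean (9.77-fold, adjusted p = 3.09e-09). SERPINB7, an intracellular protease inhibitor, was lower at least 5.00-fold than in every group. CYTL1, a small secreted protein, stood at 3.47, 3.31 and 3.52 in young cells at 20% oxygen, against 0.93, 0.86 and 0.43 in senescent cells, -0.43, -0.65 and -0.78 in young cells at 3% and -1.09, -0.51 and -0.70 in old cells at 3%, and its difference from the mean was 3.65 ± 0.13 (12.5-fold). The protease ADAMTS8 differed by 2.35, 2.77 and 2.47 from senescent, young 3% and old 3% cells, with probe sets at 0.91, 2.01 and 4.67 against the mean. KRTAP4-12, a hair keratin-associated protein, was higher at least 6.85-fold; its family shares sequence, so the member that gave the signal is uncertain. The ubiquitin ligase RNF128, the GABA-B receptor auxiliary subunit KCTD12 and the leucine-rich repeat protein LRRN1 were higher at least 4.90-fold, 4.49-fold and 4.35-fold. SHISA3, an antagonist of Wnt and FGF receptors, stood at 2.29, 2.85 and 2.32 in young cells at 20% oxygen, against -2.07, -2.20 and -1.43 in senescent cells, -0.20, -0.43 and -0.61 in young cells at 3% and 0.70, 0.48 and 0.20 in old cells at 3%, so that senescent cells were the low end for this gene.

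Growth factors and their regulators were mixed. Of 32 measured members 11 were higher (34.4%) and 3 lower (9.38%) than the mean. Higher than each group were 4 (12.5%), and 2 were lower (6.25%), beside 3.05% and 1.4% of all genes. The 2 were 1 without any single young 20% or senescent array, young 3% replicate 1 or 3, or old replicate 3. PDGFD, a ligand of the PDGF receptors, stood at 1.50, 1.43 and 1.42 in young cells at 20% oxygen, against -0.26, -0.48 and -0.41 in senescent cells, -0.10, -0.08 and -0.25 in young cells at 3% and 0.20, 0.04 and -0.15 in old cells at 3%. Its probe sets gave 2.97 and 0.26 against the mean. The EGF receptor ligand HBEGF differed by 1.11, 1.36 and 1.59 from senescent, young 3% and old 3% cells, with probe sets from -0.05 to 2.87 against the mean. IGFBP2, which binds insulin-like growth factors, was higher (2.03 ± 0.16) and IGFBP3 lower (-1.17) than the mean, both also against each group. Of 31 Wnt and Notch genes 6 were higher (19.4%) and 4 lower (12.9%) than the mean, 2 lower without young 20% replicate 1, with a median of 0.03. LEF1, JAG1 and FRZB were higher than each group (9.68%, beside 3.05% of all genes). The probe sets of LEF1 gave 0.01, 0.05 and 2.71 against the mean. Those of JAG1 ran from -0.06 to 1.00 and those of FRZB from 0.00 to 0.73. FRZB held in 5 of the 12 fits that leave out 1 array. Of 23 TGF-beta and BMP genes 5 were higher (21.7%) and 2 lower (8.7%), 1 lower without young 20% replicate 1 or 2, senescent replicate 1 or 2, young 3% replicate 1 or 3, or old replicate 1 or 2. LTBP2, a matrix protein of the latent TGF-beta binding family, was higher than each group (1.10 ± 0.09). Over all genes 8.45% were higher and 6.18% lower than the mean.

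Detoxifying and antioxidant enzymes were partly higher. Of 31 NRF2 targets and antioxidant enzymes 12 were higher (38.7%) and 1 lower (3.23%) than the mean, beside 8.45% and 6.18% of all genes. Higher than each group were 8 (25.8%), and 0 were lower, beside 3.05% and 1.4% of all genes. At an unadjusted p under 0.05 in each limma comparison 0 were lower as well. The 8 were 5 without young 20% replicate 2 or senescent replicate 3, and the list's median was 0.09. The epoxide hydrolase EPHX1 stood at 1.31, 1.27 and 0.93 in young cells at 20% oxygen, against -0.21, 0.04 and -0.09 in senescent cells, -0.35, -0.25 and -0.35 in young cells at 3% and 0.34, 0.25 and -0.04 in old cells at 3%. The quinone reductase NQO1 differed by 1.04, 1.06 and 0.69 from senescent, young 3% and old 3% cells. AKR1C1 and AKR1C2, aldo-keto reductases of near-identical sequence whose signals may be shared, were higher than each group, with probe sets of AKR1C1 from -0.02 to 2.23 and of AKR1C2 at 1.79, 1.94 and -0.09 against the mean. SOD2, the mitochondrial superoxide dismutase, was higher by 0.29 than in senescent cells (adjusted p = 0.0425), 1.00 than in young cells at 3% and 0.78 than in old cells at 3%. It held in 4 of the 12 fits that leave out 1 array, those without young 3% replicate 1 or 2 or old replicate 1 or 3. HMOX1, GCLM and TXNRD1, other NRF2 targets, were not called; HMOX1 differed from the mean by -0.01 ± 0.08.

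Of 23 genes of cholesterol and fatty acid synthesis 9 were higher (39.1%) and 0 lower than the mean, beside 8.45% and 6.18% of all genes. At an unadjusted p under 0.05 in limma 0 were lower. Higher than each group were 5 (21.7%), beside 3.05% of all genes. HMGCS1, the synthase at the head of the mevalonate pathway, stood at 1.07, 1.09 and 1.26 in young cells at 20% oxygen, against 0.50, 0.49 and 0.31 in senescent cells, -0.41, -0.55 and -0.35 in young cells at 3% and -0.40, -0.47 and -0.48 in old cells at 3%. MSMO1, a sterol oxidase, was higher than in young and old cells at 3% (1.71 and 2.01) and not called against senescent cells (0.19, adjusted p = 0.384). The count of 5 was 2 without young 20% replicate 2 or 3 or senescent replicate 2 or 3, 3 without young 20% replicate 1 or senescent replicate 1, and 8 with array quality weights. Of 26 nuclear-encoded respiratory chain subunits 2 were higher (7.69%) and 1 lower (3.85%) than the mean, shares below the 8.45% and 6.18% of all genes, and 1 and 0 without young 20% replicate 1 or 3. Of 8 metallothioneins, which bind zinc and copper and share sequence, 6 were lower than the mean (75%), beside 6.18% of all genes. The 6 were 2 without young 20% replicate 2. Lower than each group were 0, beside 1.4% of all genes. At an unadjusted p under 0.05 in each limma comparison 3 were lower, and 3 were called without young 3% replicate 2.

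The smaller lists are set beside all genes, of which 8.45% were higher and 6.18% lower than the mean, and 3.05% and 1.4% than each group. Among them, 4 of 18 heat shock chaperones were higher (22.2%) and 2 lower (11.1%) than the mean. The 4 were 2 without young 20% replicate 1 or 3 or old replicate 2. Against each group 2 were higher (11.1%) and 2 lower (11.1%), with 1 lower without young 20% replicate 1 or 2 or senescent replicate 1 or 2. HSPH1, which releases nucleotide from HSP70, was among the higher (1.38, 0.88 and 0.75), and HSPA13 and DNAJB6 were the lower ones, with -0.58 and -0.76 against the mean. Of 9 serpins and genes of the plasminogen system 3 were higher (33.3%) and 3 lower (33.3%) than the mean, 1 lower without young 20% replicate 1 or 3. PLAU, the urokinase that activates plasminogen, was higher than each group (1.48, 1.81 and 1.22). Of 25 inhibitors of cyclin-dependent kinases and p53 targets 4 were higher (16%) and 5 lower (20%) than the mean. Of 17 prostaglandin and steroid enzymes and receptors 8 were higher (47.1%) and 1 lower (5.88%) than the mean, with the receptor PTGER2 higher than each group (0.94, 0.81 and 0.58). Of 15 matrix metalloproteinases and inhibitors 3 were higher (20%) and 2 lower (13.3%) than the mean. The 3 were 1 without young 20% replicate 2 or 3, and the 2 were 0 without young 20% replicate 1 or 3. Against each group limma had 0 hold, with 0 higher and 1 lower at an unadjusted p under 0.05 in each comparison. Without young 20% replicate 2, 1 was called lower than each group.

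Of the genes that differed from the mean, 1192 (41.2%) held against 2 of the groups and 759 (26.2%) against 1. The most frequent of these patterns was no call against senescent cells: 706 genes (24.4%), 283 higher and 423 lower, shared the direction against both groups at 3% oxygen. The mitosis genes HMMR and BUB1B were among the lower ones with the largest differences. KRTAP1-5, another hair keratin-associated protein, was among the higher and stood at 1.45, 1.27 and 1.56 in young cells at 20% oxygen, against 1.96, 1.99 and 1.95 in senescent cells, -1.41, -1.84 and -1.27 in young cells at 3% and -1.28, -1.72 and -2.30 in old cells at 3%. In 39 genes (1.35%) the difference from senescent cells was called in the opposite direction. The long noncoding RNA LINC01116 had the largest difference of these and stood at -2.62, -2.23 and -2.06 in young cells at 20% oxygen, against -3.03, -2.94 and -3.04 in senescent cells, 2.29, 2.06 and 2.28 in young cells at 3% and 2.46, 2.29 and 2.62 in old cells at 3%.

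Fewer genes lacked the call against another single group. For 289 genes (9.99%) that group was the young cells at 3% oxygen, which share the population doubling. HEPH, a copper-dependent ferroxidase of iron export, stood at 1.12, 1.08 and 1.06 in young cells at 20% oxygen, against -1.34, -1.49 and -1.24 in senescent cells, 0.91, 0.98 and 1.07 in young cells at 3% and -1.07, -0.90 and -1.05 in old cells at 3%; its probe sets gave -0.07 and 3.17 against the mean. The Notch ligand DNER was among the lower genes of this pattern, with young 20% arrays at -0.29, -0.96 and -1.59. For 156 genes (5.39%) it was the old cells at 3%. WNT2, a Wnt ligand of lung mesenchyme, stood at 1.28, 1.19 and 0.78 in young cells at 20% oxygen, against -1.38, -1.87 and -1.13 in senescent cells, -0.68, -1.04 and -1.12 in young cells at 3% and 0.96, 0.69 and 0.68 in old cells at 3%. The oxytocin receptor OXTR was lower than in senescent cells (-1.56) and young cells at 3% (-0.59) and not called against old cells at 3% (-0.01). Another 368 genes (12.7%) differed from the mean and, of the single groups, from senescent cells alone.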

How the data were processed

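RNA of 12 IMR-90 samples in 4 groups of 3 was hybridised to Affymetrix arrays. The authors deposited log2 values per probe set, with RMA named in the submitters' processing notes; each probe set's values were found to have a median of 0 over the 12 arrays (tolerance 1e-06), and log base 2 is assumed from RMA because none is stated. Of 54675 probe sets, 62 were controls, 41091 named 1 gene, 1801 several and 11721 none; symbols came from GEO's platform annotation, which can be old, updated through RefSeq tables (41037 matched). Probe sets of a gene were averaged to 19775 genes (10523 with several probe sets). Differences were fitted with limma 3.58.1 (R 4.3.3; lmFit, contrasts, eBayes) with all 4 groups in 1 model, adjusted by Benjamini-Hochberg over all genes, and the code was tested on simulated data. The numbers in the labels did not pair young 20% arrays with the others (correlations of deviations from -0.517 to 0.43), so no block was used in the report. Between senescent and old 3% arrays they were 0.129, 0.519 and 0.669.

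The comparison, gene lists and named genes were chosen with earlier results of these data known, and a list's count is therefore a description. Named were the 15 higher and 15 lower genes with the largest smallest-of-3 difference among those that held without overlap, up to 5 members per list with the largest difference from the mean, a fixed panel, and, of genes that held against all but 1 group or had an opposite call, the 5 largest per direction. Other genes named were chosen after their values were seen. Alternatives were testing each probe set, the probe set with the largest SD, quantile normalisation, median centring, trended and robust eBayes, array weights, the replicate block, ACTB 3' to 5' difference as a covariate, a filter on flat genes, stricter thresholds and leaving out each array. Promoter sequences came from RefSeq; probe sets that name no single gene were counted only.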

Additional observations from a re-analysis of the deposited data

Results flagged for a closer look

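The gene-level comparisons left out 13522 probe sets that the annotation gives to no single gene. Tested in the same way as a set of their own, 403 of them were higher and 185 lower in young cells at 20% oxygen than in the mean of the other groups. Of these, 168 (1.24%) held against each of the 3 groups, 126 higher and 42 lower. They came up because this is signal in data the report does not use; which transcripts they measure is not given here.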

How the results depend on the processing

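The 30 genes ranked first by the smallest of the 3 differences (15 higher, 15 lower) held under all 22 gene-level settings. They were picked because they held by wide margins in these same arrays, so this outcome was largely set by the choice. Of the 205 named genes 0 reversed under any of the settings. Comparisons of the named genes with the main setting gave 4302 on the same side of the threshold, 37 newly past it and 159 no longer past it. Counts of genes depended on the setting. With each probe set tested on its own, 5364 differed from the mean and 1706 held, 4678, 4316 and 4906 differed from senescent, young 3% and old 3% cells, and 1212 and 101 held for senescent and young 3% cells in their place; here more features were tested. Array quality weights gave 5775 and 1746, 6203 against senescent and 5167 against old 3% cells, and 1256, 100 and 258 for senescent, young 3% and old 3% cells in their place; the cause was not tested. In the same order over all 8 counts (mean, held, senescent, young 3%, old 3%, then the 3 other groups in their place), an adjusted p under 0.01 left 1823, 475, 1477, 1412, 1684, 322, 28 and 88, and a minimum log2 difference of 1 left 368, 116, 372, 459, 598, 64, 7 and 35. Leaving out each array gave 1877 to 2869, 561 to 845, 1687 to 2567, 1626 to 2455, 1913 to 2745, 398 to 623, 43 to 67 and 94 to 182. With the replicate number as a block, which does not pair the young 20% arrays with the others, 2735 differed from the mean, 838 held, 561, 56 and 135 held for senescent, young 3% and old 3% cells in their place, and 5 contractile genes in place of 9 were higher than each group. The largest of the 3 single p-values, adjusted once, called 599. Testing each probe set was not run per named gene or list. Signal over background is not part of the deposited values, so genes near background could not be set apart.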

Other observations

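Factors of ribosome biogenesis, a list added after the data were seen, were higher in young cells at 20% oxygen. Of 73 measured members 49 were higher (67.1%) and 0 lower than the mean of the others in limma (at an unadjusted p under 0.05, 1 lower). Higher than each group were 27 (37%), and the median difference was 0.49. Over all genes 8.45% were higher than the mean and 3.05% than each group. The 27 fell to 17 with young 20% replicate 1 or young 3% replicate 2 left out, and to 16 with young 20% replicate 2 left out. The kinase RIOK1, which acts in the maturation of the small subunit, stood at 1.37, 1.68 and 1.30 in young cells at 20% oxygen, against -0.54, -0.57 and -0.60 in senescent cells, 0.33, 0.11 and 0.55 in young cells at 3% and -0.11, -0.45 and -0.47 in old cells at 3%. RRS1, NIP7 and MAK16, which act in the large subunit, differed from the mean by 1.36, 1.10 and 1.09. Of 40 ribosomal proteins themselves, RPS24 was called (0.64, with probe sets at -0.04 and 1.32).

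Of 16 complement genes, also added after the data were seen, 5 were higher (31.2%) and 3 lower (18.8%) than the mean, beside 8.45% and 6.18% of all genes, and the median against senescent cells was -0.08. C1R and C1S, the proteases of the first component, were higher than each group, by 1.93 and 1.81 against the mean, as was the inhibitor CLU (1.53, with probe sets from 0.00 to 2.19). CD55 and CD59, which protect cells from complement, differed by -0.84 and -0.39 from the mean and were lower than in old cells at 3%. Of 9 pregnancy-specific glycoproteins, 6 were lower than the mean (66.7%) and 4 than each group (44.4%), beside 6.18% and 1.4% of all genes. The family is so alike in sequence that its members are uncertain on an array. The 4 were PSG3 (-1.46), PSG5 (-1.33), PSG9 (-1.04) and PSG6 (-0.82). The family went both ways against old cells at 3%, where these 4 were lower and 3, PSG1, PSG4 and PSG7, were higher (0.34, 0.79 and 0.55).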
